A study of Mus musculus with 58 samples.

Results

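PSPC1 is an RNA-binding protein that was mapped on the chromatin of mouse embryonic stem cells by chromatin immunoprecipitation followed by sequencing (ChIP-seq). The regions described here are the places where all 3 PSPC1 peak lists of the series had a peak and none of the lists of 6 other RNA-binding proteins did. They were chosen by the presence and absence of peaks, after merging the 156215 peaks of 9 lists wherever they shared at least 1 bp, and by a region width below 5000 bp. Of the 67384 merged regions, 600 met this rule.

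The series holds 58 samples, of which 9 had a peak list. Knock-in PSPC1, which carries its tag at the endogenous gene (source cells named AID-FB(KI)-PSPC1 and built from CJ9 cells), had 2 libraries. PSPC1 was also overexpressed, as were UTP6, UTP3, CIRH1A and the nuclear proteins SAFB2, SAFB and hnRNPU, each with 1 library (source cells named FB(OE) and built from BirA J1 cells). All samples are labelled with the strain 129/Ola, none of the cells behind these lists was treated, and every immunoprecipitation used 5 µg of a FLAG antibody, which recognises the tag and not the protein. The labels do not say whether the lines were single clones or whether the knock-in libraries came from separate cultures, so differences between them may be technical. Fixation differed: 3% formaldehyde for knock-in PSPC1 and for UTP6, UTP3 and CIRH1A, and 1% for overexpressed PSPC1. For hnRNPU, SAFB and SAFB2 the protocol gives 2 mM DSP, a protein crosslinker, before 1% formaldehyde, and a streptavidin step after the FLAG capture. Protein and library therefore cannot be told apart outside the knock-in pair. Where lists also differ in parental line or fixation, these cannot be told apart from protein and library either.

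PSPC1 belongs to the DBHS family with NONO and SFPQ, proteins that bind RNA and DNA and gather on the long noncoding RNA Neat1 to form paraspeckles, bodies in the nucleus. Members of the family also bind chromatin and take part in transcription and RNA processing. The 6 proteins used for comparison are of other kinds: hnRNPU, SAFB and SAFB2 are abundant nuclear RNA-binding proteins linked to the nuclear matrix, and CIRH1A, UTP3 and UTP6 take part in the early processing of ribosomal RNA in the nucleolus.

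PSPC1 regions free of the other proteins were a minority. Of the 5438 regions below 5000 bp with a peak in all 3 PSPC1 lists, 600 had no peak of the 6 other proteins, which is 11.0% (Wilson 95% interval 10.2 to 11.9%). The rule fixes this count, so it is given as a description. For scale, 50.2% of the 3807 regions found in both knock-in lists and not in the overexpressed PSPC1 list had no other protein, and so did 25.5% of the 9104 regions found with overexpressed PSPC1 and in neither knock-in list. Regions in which both forms of PSPC1 were detected were thus the least often free of the other proteins among these 3 kinds. All intervals cover counting error only, since regions are not replicates, and no p-value was computed across them.

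Among the 6 other proteins, UTP6 was found most often in the PSPC1 regions. UTP6, with 40217 peaks the longest list, had a peak in 87.3% of the 5438 regions (86.3 to 88.1%). UTP3 had one in 52.3%, CIRH1A in 38.8%, hnRNPU in 37.3%, SAFB in 11.1% and SAFB2 in 7.98%. In 1093 regions, or 20.1%, UTP6 was the only other protein. A further 3652 regions with a UTP6 peak carried at least 1 more protein, so UTP6 alone did not decide those. hnRNPU was the only other protein in 41 regions, UTP3 in 15, SAFB in 9, SAFB2 in 4 and CIRH1A in 3. Without the UTP6 list, 1699 regions would have met the rule.

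The regions kept out by UTP6 alone show where that boundary lies. Their UTP6 scores ran from 50.1 to 369 with a median of 106, and 104 of them (9.52%) lay under 60, just above the lowest score of that list, 50. Where UTP6 was accompanied by at least 1 more protein, its median score was 212 and 1.15% lay under 60. The UTP6 peaks that removed a region on their own were thus lower than the others, but most were not at the bottom of the list. In the knock-in lists these 1093 regions had median scores of 101 in replicate 1 and 119 in replicate 2, and in the overexpressed PSPC1 list they had a median of 111. The 600 regions without any other protein had medians of 108, 115 and 101 in the same lists.

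The 10 leading members were chosen by the mean of their score ranks over the 3 PSPC1 lists, so their high scores follow from the choice. The score is the number the authors deposited for each peak. Its unit is not stated, so scores and ranks are compared within a list. The first was chr19:31836543-31840506 (mm9, as are all positions here). It scored 3100 in both knock-in lists and 505 in the overexpressed PSPC1 list, where it ranked 705. The nearest peak of another protein, one of SAFB2, lay 30117 bp away. Scores pile up at 3100 in the knock-in lists, so ranks near that value have little meaning.

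The second, chrX:139113543-139117708, scored 2117 in knock-in replicate 1, 1421 in replicate 2 and 865 with overexpressed PSPC1. The last value was the highest of all 600 members in that list. The region chr2:44962974-44967418 scored 3163, 2469 and 436 in the same order, and chr3:94174976-94179193 scored 2345, 2565 and 486. The fifth, chr16:94548235-94553121, scored 1758, 1496 and 528. All of these, chosen by rank, were far above the median score of their list, 52.6 and 53.6 in the knock-in lists and 88.0 for overexpressed PSPC1.

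The remaining leading members were chr4:114513526-114517504, chr10:86953932-86958155, chr13:78347399-78351472, chr15:102963896-102967415 and chr5:136325976-136328906. Over all 10, replicate 1 scores lay between 1081 and 3163, replicate 2 scores between 893 and 3100, and overexpressed PSPC1 scores between 376 and 865. Their ranks were 8 to 657 and 7 to 748 in the knock-in lists and 235 to 1227 with overexpressed PSPC1. The nearest other protein was UTP6 for 7 of the 10, at distances that ranged over all 10 from 3855 to 42734 bp.

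**Figure D1:**
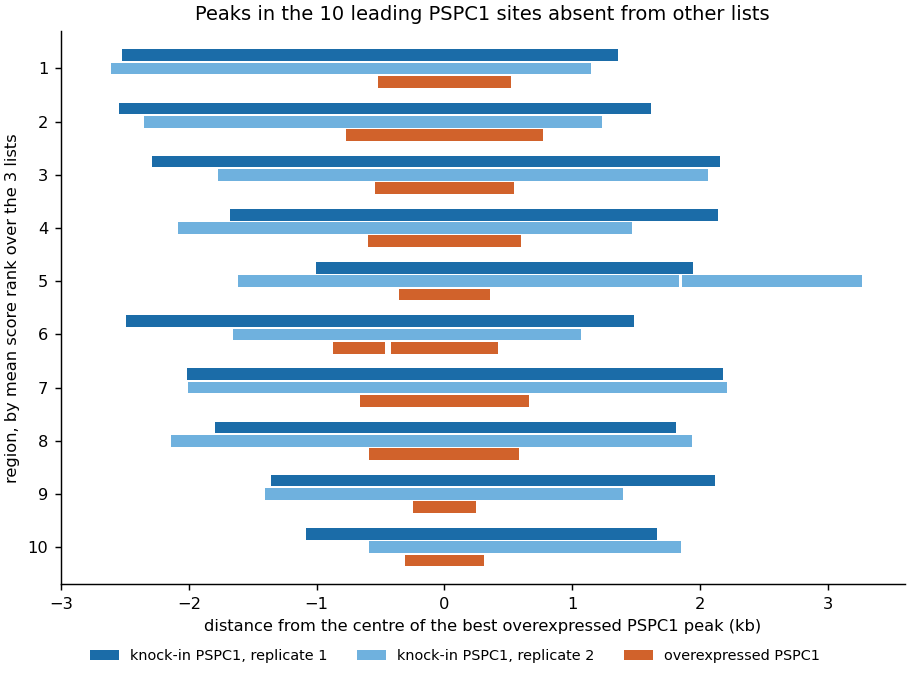
Peaks of the 3 PSPC1 lists in the 10 leading members, drawn to scale in kb from the centre of the best overexpressed PSPC1 peak; each row is a region and each bar a peak. The overexpressed PSPC1 peaks, 490 to 1543 bp wide for the best peak of each region, lie within the wider knock-in peaks.

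A score of at least 3100 was found for 4 members in knock-in replicate 1, for 2 of these in replicate 2 and for none with overexpressed PSPC1. Exactly 3100 was given to 303 peaks of replicate 1, 274 of replicate 2 and 10 of the overexpressed PSPC1 list, so the lists cannot be compared by rank there. The 4 members were chr19:31836543-31840506, chr2:44962974-44967418, chr13:93410258-93414644 and chr3:62002098-62006337, of which the last 2 are named here after their values were seen. The chr13 region scored 3100 in both knock-in lists, as the chr19 region did, and 188 with overexpressed PSPC1. The chr3 region scored 3100 in replicate 1 and 2903 in replicate 2, but 69.5 with overexpressed PSPC1, where it ranked 14808 of 22785. The chr3 region thus stood near the top of the knock-in lists and in the lower part of the overexpressed PSPC1 list.

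Over all 600 members, replicate 1 scores ran from 30.5 to 3163 with a median of 108, and replicate 2 scores from 30.2 to 3100 with a median of 115. Overexpressed PSPC1 scores ran from 50.1 to 865 with a median of 101. Placed within each whole list, the median member stood at percentile 76.5 of replicate 1 and 78.9 of replicate 2, and at percentile 58.1 of the overexpressed PSPC1 list. The 4838 regions that carried all 3 PSPC1 peaks and at least 1 other protein stood at 72.7, 78.5 and 74.7. The median member was thus placed above the median shared region in replicate 1, close to it in replicate 2 and below it with overexpressed PSPC1. Both knock-in lists placed 18.5% of the members in their top 10% (15.6 to 21.8%), against 16.1% of the shared regions (15.1 to 17.1%). The top 10% of the overexpressed PSPC1 list held 13.0% of the members (10.5 to 15.9%) and 24.0% of the shared regions (22.8 to 25.2%). The regions with UTP6 as the only other protein lay between, at 16.7% (14.7 to 19.1%), an interval that overlapped that of the members, and at a median percentile of 62.6.

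Scores of the knock-in libraries went together across the members, with a Spearman rho of 0.786 over 600 regions. Knock-in and overexpressed PSPC1 scores were more loosely related, with a rho of 0.317 for replicate 1 and 0.288 for replicate 2. The shared regions gave similar values, 0.743 between the knock-in lists, and 0.310 and 0.35 with overexpressed PSPC1. These are descriptions across regions that share the same libraries. A score under 50, the lowest value in the overexpressed PSPC1 list, was found in at least 1 knock-in list for 149 members, because the knock-in lists start at 30.

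**Figure D2:**
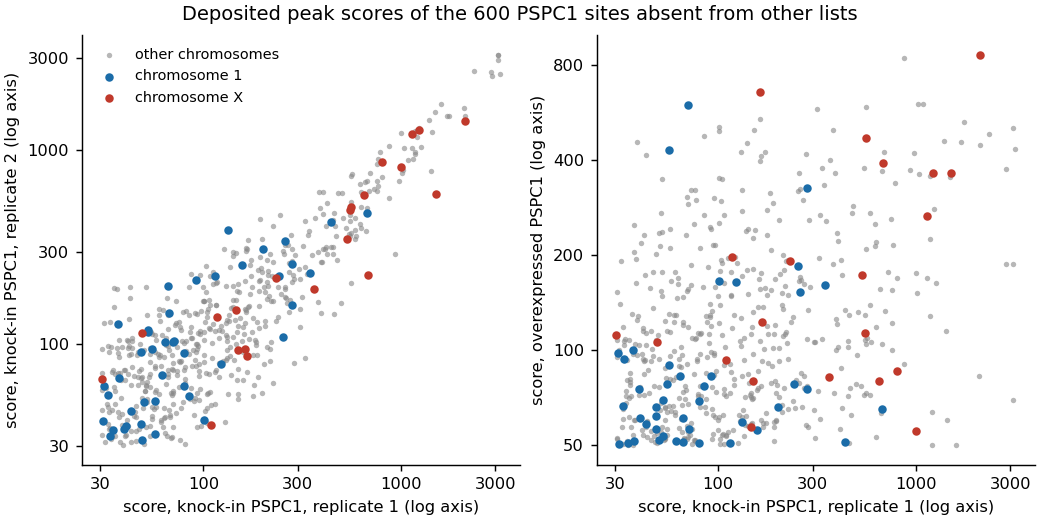
Deposited scores of the 600 members, knock-in replicate 1 against replicate 2 (left) and against overexpressed PSPC1 (right), on log axes; each point is a region. Points follow a band on the left and scatter widely on the right, and 10 of the 21 chromosome X regions are in the top 10% of both knock-in lists.

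The share of regions without another protein fell as the overexpressed PSPC1 score rose. In the lowest quartile of that score, 18.0% of 1360 regions were members (16.1 to 20.2%). The following quartiles gave 11.7% and 8.01%, and the highest gave 6.40% of 1359 (5.22 to 7.83%). The knock-in scores showed no such fall. By replicate 1 the share went the other way, from 9.26% in the lowest quartile (7.84 to 10.9%) to 12.8% in the highest (11.1 to 14.7%), and these intervals did not overlap. By replicate 2 it was 10.1% (8.58 to 11.8%) and 11.5% (9.89 to 13.3%), with intervals that overlapped.

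The fall was present among regions with high and with low knock-in scores. Among regions above the median of the mean knock-in percentile, 23.2% of 475 regions in the lowest overexpression quartile were members (19.6 to 27.2%) and 7.48% of 976 in the highest (5.99 to 9.30%). Among those below it the shares were 15.3% of 885 (13.0 to 17.8%) and 3.66% of 383 (2.19 to 6.04%). The 3 scores together gave a weaker gradient: by mean percentile over the 3 lists, 12.5% of the lowest quartile (10.8 to 14.4%) and 8.90% of the highest (7.50 to 10.5%) were members. That order did not hold when every list was reduced to its 6670 highest scores, where the lowest quartile held 35.6% and the highest 40.4%, nor with the 50% highest scores of each list, at 23.1% and 23.3%. The order by the overexpressed PSPC1 score alone held in all 11 alternatives run. The quartiles of single lists were examined after the data had been seen.

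Each other protein was found more often at the higher overexpressed PSPC1 scores. From the lowest to the highest quartile the share of regions with a peak rose from 23.5% to 52.2% for CIRH1A, from 37.4% to 62.8% for UTP3 and from 24.0% to 46.4% for hnRNPU. UTP6 went from 79.4% to 92.3%, SAFB from 9.12% to 13.0% and SAFB2 from 6.40% to 9.49%. The intervals of the lowest and highest quartiles did not overlap for any of the 6 (for SAFB2, 5.21 to 7.82% and 8.05 to 11.2%).

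**Figure D3:**
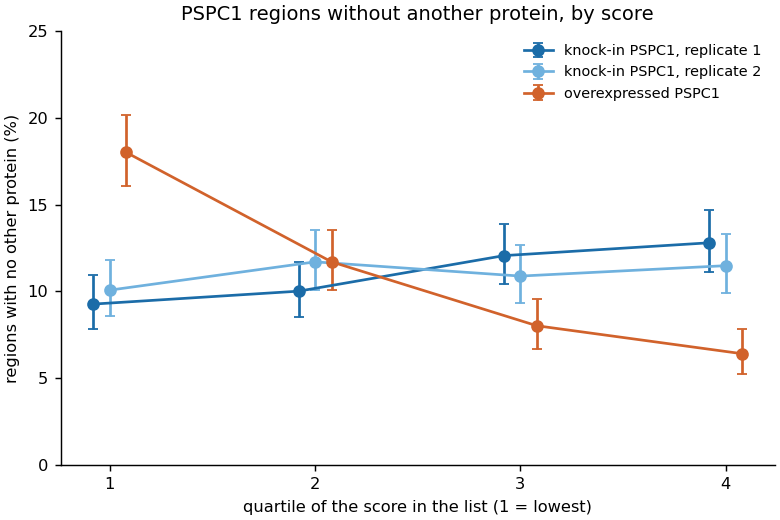
Share of the 5438 regions in all 3 PSPC1 lists that had no peak of the 6 other proteins, by quartile of the score in each list (1 lowest, 4 highest); bars are Wilson 95% intervals for counting error. The overexpressed PSPC1 line falls from 18.0 to 6.40%, and the knock-in lines stay between 9.26 and 12.8%.

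Within a member the PSPC1 peaks were mostly nested. The best overexpressed PSPC1 peak lay wholly inside the best peak of both knock-in libraries in 529 members, or 88.2% (85.3 to 90.5%), against 85.9% of the shared regions (84.9 to 86.9%). Median peak widths in the members were 1920 bp in replicate 1, 1780 bp in replicate 2 and 336 bp for overexpressed PSPC1. In the shared regions they were 1964, 1997 and 481 bp. The overexpressed PSPC1 peak was thus narrower where no other protein was found, and its score was lower there too.

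The rule admits only joined peaks in regions below 5000 bp, so nesting and close midpoints are in part fixed by it. Replicate 1 and 2 midpoints were a median of 176 bp apart in the members. The midpoint of the overexpressed PSPC1 peak lay a median of 225 bp from that of replicate 1 and 232 bp from that of replicate 2, and within 250 bp of the replicate 1 midpoint in 54.8% of members (50.8 to 58.8%). The shared regions gave 50.7% (49.3 to 52.1%), an interval that overlapped. Their median midpoint distances were 197, 247 and 254 bp in the same order. In 569 members some base lay in a peak of all 3 lists, and in 31 the peaks were joined only as a chain. More than 1 peak was found in 15 members for replicate 1, in 24 for replicate 2 and in 49 for overexpressed PSPC1.

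Members were not remote from the other proteins. The nearest peak of any of the 6 lay a median of 7059 bp from the edge of a member (binomial 95% interval of the median 6455 to 8270 bp), with quartiles at 2820 and 17646 bp. Within 1 kb there was such a peak for 53 members, or 8.83% (6.82 to 11.4%), within 5 kb for 36.8% (33.1 to 40.8%), and within 50 kb for 91.0% (88.4 to 93.0%). The 1911 regions in both knock-in lists alone lay nearer, with a median of 5431 bp (5101 to 5763 bp). The 2323 regions of overexpressed PSPC1 alone lay farther, with a median of 9007 bp (8331 to 9632 bp). By this median, members were between these kinds, and their interval did not overlap that of either. Within 1 kb their share was the lowest. It was 10.4% (9.12 to 11.9%) for knock-in alone and 11.1% (9.85 to 12.4%) for overexpressed PSPC1 alone, with intervals that overlapped that of the members. The kinds also differed in median width, 2253 bp for members, 1943 bp for knock-in alone and 203 bp for overexpressed PSPC1 alone. Chromosome 1 held 7.17, 28.6 and 5.68% of them in the same order. Whether these differences bear on the distances was not tested.

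UTP6 was the nearest other protein for 442 members, or 73.7% (70.0 to 77.0%). For the regions in both knock-in lists alone this share was 71.1% (69.0 to 73.1%), an interval that overlapped. The UTP6 list held 43.7% of all peaks of the 6 proteins. hnRNPU was nearest for 8.33%, SAFB for 8.17%, UTP3 for 5.17%, SAFB2 for 3.00% and CIRH1A for 1.67%, while UTP3 held 15.8% and CIRH1A 10.5% of these peaks. Taken alone, the nearest UTP6 peak lay a median of 8251 bp away. The median was 34954 bp for UTP3, 50142 bp for CIRH1A, 59629 bp for hnRNPU, 108449 bp for SAFB and 150361 bp for SAFB2. In 38 of the 53 members with a peak within 1 kb the nearest protein was UTP6, with scores from 53.3 to 267 and a median of 92.2. These neighbours stood at a median percentile of 39.5 of the UTP6 list and would have removed the region from the rule had the peaks touched.

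**Figure D4:**
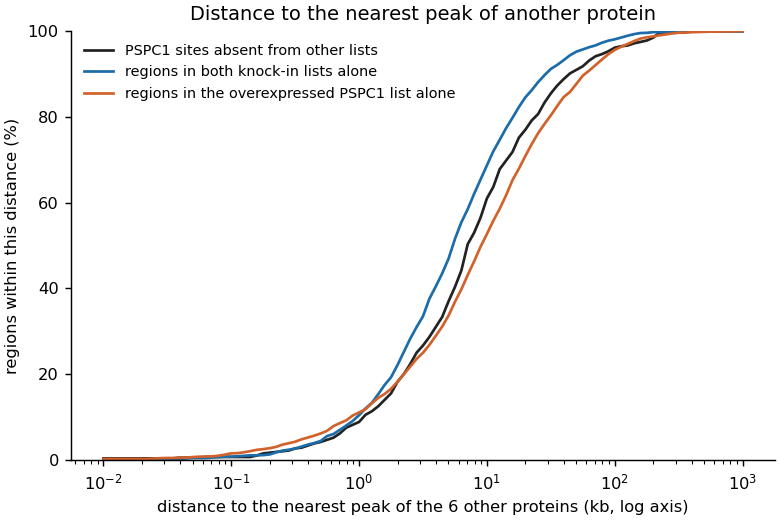
Cumulative share of regions whose nearest peak of the 6 other proteins lies within a given distance in kb (log axis), for the 600 members, the 1911 regions of both knock-in lists alone and the 2323 regions of overexpressed PSPC1 alone. The curve of the members lies below both other curves at 1 kb, lies between them at 5, 10, 50 and 100 kb, and reaches 91.0% at 50 kb.

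The extremes were as follows. The member chr4:42334032-42335576 lay farthest from the other proteins, 289747 bp from a UTP6 peak, with scores of 104, 147 and 297 in knock-in replicates 1 and 2 and overexpressed PSPC1. It was followed by its neighbour chr4:42322541-42324527 at 278256 bp, with lower scores of 70.1, 56.4 and 55.0, and by chr14:26885898-26887137 at 223112 bp. The nearest was chr1:75486683-75491157, which ended 1 bp from a UTP3 peak. It scored 440, 426 and 51.3. The members chr7:23558478-23560329 and chr15:54936176-54937697 lay 8 and 37 bp from UTP6 peaks. For these 3 the absence of another protein rests on a few bases.

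The width limit left out 88 regions that met the rest of the rule, out of 919 regions of at least 5000 bp in all 3 PSPC1 lists. The widest members were chr17:34725952-34730947 at 4996 bp, and chr4:97441143-97446137 and chr4:133933943-133938937 at 4995 bp. Their overexpressed PSPC1 scores were 58.3, 107 and 604. The narrowest regions left out were chr5:24029062-24034069 at 5008 bp, chr15:100896002-100901060 at 5059 bp and chr18:76242386-76247447 at 5062 bp, with scores of 84.1, 99.6 and 150. The 3 scores just outside the limit lay between the lowest and the highest of the 3 just inside it. The median member was 2253 bp wide, with quartiles at 1694 and 3150 bp.

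After the highest overexpressed PSPC1 score on the X chromosome, the next in that list were chr17:82067639-82071480, at 848 with knock-in scores of 872 and 568, and chrX:138662331-138663642, at 660 with knock-in scores of 162 and 94.6. The chrX region was 1312 bp wide, below the lower quartile of the members.

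Members were spread differently over the chromosomes than the shared regions. Chromosome 1 held 43 members, or 7.17% (5.36 to 9.51%), against 13.4% of the shared regions (12.5 to 14.4%) and 28.6% of the regions in both knock-in lists alone (26.6 to 30.6%). The chromosome took 22.4 and 19.0% of all knock-in peaks, 20.7% ± 2.42 (SD, n = 2), and 7.93% of the overexpressed PSPC1 peaks. The share of members was therefore close to that of the overexpressed PSPC1 list. Of the 692 chromosome 1 regions in all 3 PSPC1 lists, 6.21% had no other protein (4.65 to 8.26%). On chromosomes 2 to 19 this share ran from 7.34% on chromosome 8 (4.75 to 11.2%) to 13.9% on chromosome 10 (10.2 to 18.5%).

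Each of the 6 proteins had a peak in a larger share of the chromosome 1 regions than of those on chromosomes other than 1 and X. UTP3 had a peak in 73.6% of its 692 regions (70.2 to 76.7%), against 49.4% of the 4681 regions on chromosomes other than 1 and X (48.0 to 50.9%). For CIRH1A the shares were 56.9% (53.2 to 60.6%) and 36.4% (35.0 to 37.8%), and for UTP6 92.9% (90.8 to 94.6%) and 86.7% (85.7 to 87.7%). SAFB was found in 18.1% (15.4 to 21.1%) and 10.1% (9.25 to 11.0%), and SAFB2 in 13.6% (11.2 to 16.3%) and 7.05% (6.35 to 7.82%). For hnRNPU the shares were 41.0% (37.4 to 44.8%) and 36.9% (35.5 to 38.2%), with intervals that overlapped. The 43 members on chromosome 1 had median scores of 66.1 and 95.0 in the knock-in lists and 66.9 with overexpressed PSPC1. The 536 members outside chromosomes 1 and X had medians of 108, 115 and 104, so members on chromosome 1 were lower in all 3 lists.

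The X chromosome had a high share of regions without another protein. It held 21 members, or 3.50% (2.30 to 5.29%), against 44 of the shared regions, or 0.909% (0.678 to 1.22%). Thus 32.3% of its 65 regions in all 3 PSPC1 lists had no other protein (22.2 to 44.4%), and this interval lay above that of every autosome. X also held 2.78% of all 67384 merged regions. It held 3.19% of the regions of overexpressed PSPC1 alone (2.55 to 3.98%) and 1.99% of those in both knock-in lists alone (1.45 to 2.72%). The members' 3.50% was thus near the share over all regions, and the shared regions were low. UTP6 had a peak in 64.6% of the 65 (52.5 to 75.1%), UTP3 in 29.2% (19.6 to 41.2%) and CIRH1A in 20.0% (12.1 to 31.3%). Each was a lower share than outside chromosomes 1 and X. For hnRNPU, at 32.3% (22.2 to 44.4%), and SAFB, at 9.23% (4.30 to 18.7%), the intervals overlapped. SAFB2 went the other way, in 15.4% of the X regions (8.58 to 26.1%) against 7.05% (6.35 to 7.82%). The lists themselves had few peaks on X, 1.32 and 1.30% in the knock-in lists, 2.19% for overexpressed PSPC1 and 2.25% for UTP6, but 6.83% for SAFB and 6.48% for SAFB2. With a width limit of 3000 bp the share was 20.0% (11.6 to 32.4%), against 12.0% of all such regions (11.0 to 13.1%). These intervals overlapped, so the difference was uncertain at that width. The X share was above that of all such regions in all 11 alternatives run.

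The X members scored high in the knock-in lists. Replicate 1 scores ran from 30.5 to 2117 with a median of 531, replicate 2 scores from 38.4 to 1421 with a median of 228, and overexpressed PSPC1 scores from 55.5 to 865 with a median of 123. Of the 21, 10 were in the top 10% of both knock-in lists. They lay a median of 53538 bp from the nearest peak of another protein, with a range of 2459 to 222242 bp. That protein was UTP6 for 8 of them and SAFB or SAFB2 for 10, or 47.6% (28.3 to 67.6%). SAFB and SAFB2 held 1158 of the 2897 chromosome X peaks of the 6 proteins, or 40.0%, so this share lay near their share of the peaks there. The region chrX:57430641-57433837, for example, scored 1227, 1265 and 365 and lay 7061 bp from a SAFB peak. It is named after its values were seen. Only 2897 of the 92049 peaks of the 6 proteins lay on chromosome X. Whether X regions of the other kinds scored as high or lay as far was not tested.

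**Figure D5:**
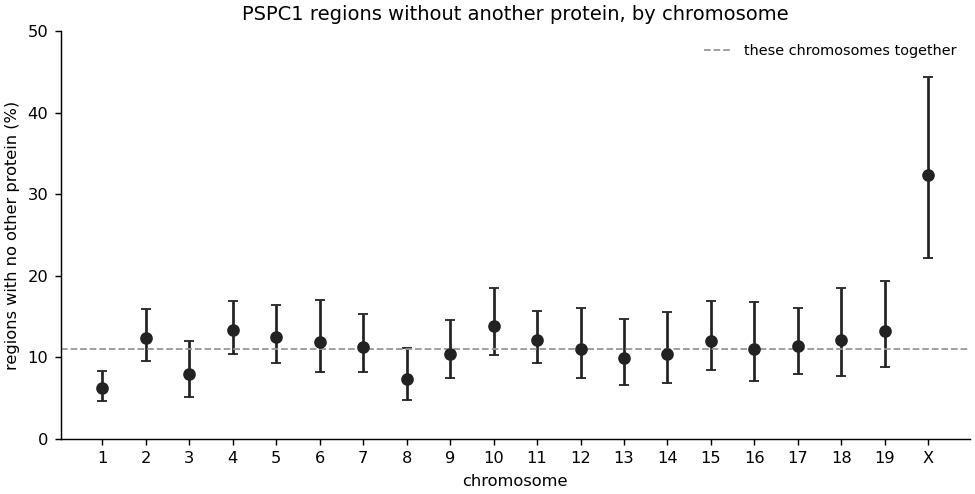
Share of regions in all 3 PSPC1 lists that had no peak of the 6 other proteins, by chromosome; bars are Wilson 95% intervals and the dashed line is the share over these chromosomes. Chromosome X lies at 32.3% and chromosome 1 at 6.21%, and chromosomes 2 to 19 lie between 7.34 and 13.9%.

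Most members had no other member within 100 kb. The median distance from a member to the nearest other member was 762843 bp. Another member lay within 10 kb for 28 of the 600 (4.67%, 3.25 to 6.66%) and within 100 kb for 111 (18.5%, 15.6 to 21.8%). Within 1 Mb there was one for 332 (55.3%, 51.3 to 59.3%). In fixed windows of 1 Mb, 357 windows held 1 member, 73 held 2, 25 held 3, 3 held 4 and 2 held 5. For 599 members the nearest region that all 3 PSPC1 lists shared with another protein lay a median of 54664 bp away (44466 to 65220 bp). That median was 41067 bp (37716 to 44807 bp) for the regions in both knock-in lists alone and 136638 bp (119994 to 150750 bp) for those of overexpressed PSPC1 alone.

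The windows with 5 members were megabase 82 to 83 of chr15 and megabase 42 to 43 of chr4, followed by megabase 97 to 98 of chr11, 1 of 3 windows with 4. In the chr15 window 5 of 9 regions with all 3 PSPC1 peaks were members. They were chr15:82046174-82049050, chr15:82053789-82055478, chr15:82082460-82086316, chr15:82194896-82195986 and chr15:82995165-82996222. Their replicate 1 scores were 177, 282, 238, 30.7 and 39.9, and their overexpressed PSPC1 scores lay between 69.1 and 120. The first 3 had the higher replicate 1 scores, and the last 2 were low in that list.

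In the chr4 window 5 of 6 such regions were members, named here after their values were seen. Besides the 2 farthest members given above they were chr4:42053949-42056080, chr4:42682341-42686275 and chr4:42693997-42696035, at 9664, 203398 and 193638 bp from the nearest UTP6 peak. Of the 5, only the region at 9664 bp lay nearer than the upper quartile of all members' distances, 17646 bp. The region chr4:42682341-42686275 had the highest knock-in scores of the 5, 264 and 163, and scored 168 with overexpressed PSPC1.

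The identity of the members depended on how many peaks of each list were kept. When each list was reduced to its 6670 best peaks, the length of the shortest one, 698 regions met the rule, or 38.9% of the regions in all 3 PSPC1 lists. Only 147 of them were among the 600, which is 24.5% of the 600 and 21.1% of the 698. With the 50% highest scores of each list, 265 of the 600 were kept, or 44.2%. Shortening a list also raises its lowest score, so length and score limit cannot be told apart here. The read depth and the control behind each list are not known here. Absence from a list is therefore absence of a called peak in 1 library, not absence of the protein.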

How the data were processed

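Peak lists of 9 ChIP-seq libraries were used; the other 49 samples were not analysed here. The authors deposited 1 list per library, with chromosome, start, end, a peak name and a score. The unit of this deposited score is not stated, and scores were ranked only against others of the same list. The peak names in the files carry the caller name MACS; its version, threshold and control are not given in the sources used here. Per the submitters' processing notes the build is mm9, and Bowtie2, CASAVA and TopHat are named without roles. Gene annotation and sequence of this build were not used here, so no region is assigned to a gene, and the alternatives planned for GC content and gene starts were not run. Positions count from 1.

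Peaks sharing at least 1 bp were merged, and distances run from edge to edge. The best scoring peak per list stands for a region. Shares carry Wilson 95% intervals, and medians of distances a binomial 95% interval. Quartiles were formed over the 5438 regions. Named regions are the 10 with the best mean score rank, the 3 with the highest overexpressed PSPC1 score, the 3 farthest from and nearest to another protein, the 3 widest members and the 3 narrowest regions beyond the width limit, the 3 windows of 1 Mb with the most members and the members of the first; others are marked. The members and these descriptions were chosen with earlier results of these data known. Read depth is unknown from peak lists. The rule was tested on simulated data with 800 planted regions, all of which were found. Python 3.11.15, numpy 2.4.6, scipy 1.17.1, pandas 2.3.3 and matplotlib 3.10.9 were used.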

Additional observations from a re-analysis of the deposited data

How the results depend on the processing

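Each of 11 values was recomputed under 11 alternatives. The quartiles by overexpressed PSPC1 score, the share of members among chromosome 1 regions and both chromosome X values were chosen after seeing the data. Of 121 values, 80 stayed within the interval of the reported value (for the count of members, within 1.5 times) and 41 moved; except where an alternative adds or removes peaks or distance by construction, the cause was not tested.

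With absence required within 5000 bp, 379 regions met the rule, 6.97% of those in all 3 PSPC1 lists, with 7.94% in the lowest and 5.96% in the highest quartile by mean percentile, 11.8% and 4.19% by overexpressed PSPC1 score, 3.76% on chromosome 1 and a median distance of 12827 bp. Within 1000 bp the share was 10.1% and the distance 8371 bp. Without the UTP6 list there were 1699 regions, a share of 31.1%, quartiles of 36.0% and 28.5% by mean percentile and 46.3% and 21.9% by overexpressed PSPC1 score, a distance of 18656 bp, shares of 18.0% on chromosome 1 and 55.4% on X, and 2.12% of members on X.

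With lists of equal length the share was 38.9%, the quartiles were 35.6% and 40.4% by mean percentile and 47.2% and 32.1% by overexpressed PSPC1 score, the distance was 36728 bp, and the shares were 18.3% on chromosome 1 and 87.0% on X. With the 50% highest scores these were 23.5%, 23.1% and 23.3%, 30.4% and 17.1%, 17547 bp, 11.5% and 60.6%. The X intervals were wide, 67.9 to 95.5% with equal length and 43.7 to 75.3% with the 50% highest scores. With widths below 3000 bp the share was 12.0%, the quartiles by mean percentile were 14.6% and 10.6%, and the X share was 20.0%. The lowest quartile by mean percentile was 13.2% without knock-in replicate 1, within the interval of the reported value, and moved to 15.1% without replicate 2.

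No paired analysis was possible because knock-in PSPC1 is the only group with more than 1 list. Values on GC content and gene starts, planned for a genome of the same build, were not run. Lists differ in length, lowest score, fixation and parental line, and read depth is unknown, so a missing peak cannot be told apart from a peak below the threshold of its list.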
